A study of Mus musculus with 56 samples.

Results

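A set of 10 genes whose products coat lipid droplets or control the release of fat from them was followed in mouse liver: the CIDE genes Cidea, Cideb and Cidec, the perilipin genes Plin2, Plin3, Plin4 and Plin5, the lipase gene Pnpla2, its inhibitor gene G0s2, and Hsd17b13. They are 10 of the 21935 genes in the deposited count table, found by gene symbol, and all 10 were among the 14105 genes with enough reads to be tested. The genes were listed by role, but Cidea was also selected on measured values of these same mice: its level in chow, combination and high-dose zalfermin livers against DIO-MASH vehicle livers, and the deviation of the combination from the low doses, were known when the list was made. Those values rest on the DIO-MASH vehicle and low-dose mice too, so Cidea is given as a description, without a test, in every comparison. Its standard errors and intervals make no allowance for that choice. The other 9 genes were listed with earlier results of these mice known, and their adjusted p-values do not account for that choice.

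A lipid droplet is a core of triglyceride and cholesterol ester under a single layer of phospholipid, and the proteins on that layer decide how large a droplet grows and how readily lipases reach the core. CIDE proteins gather at contacts between droplets and let lipid pass from the smaller to the larger one, with Cideb the usual hepatocyte form and Cidea and Cidec better known from fat tissue. Perilipins shield the core, Pnpla2 (adipose triglyceride lipase) removes the first fatty acid from triglyceride, G0s2 binds and blocks that lipase, and Hsd17b13 is a droplet-bound enzyme of hepatocytes. Steatotic liver is a tissue in which many of these genes are known to be switched on.

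The livers came from 56 male C57BL/6J mice in 7 groups of 8, all 7 given daily subcutaneous injections for 8 weeks. Chow vehicle mice ate standard chow and received vehicle. All other mice had eaten the AMLN diet, rich in fat with trans-fat, fructose and cholesterol, for 36 weeks before dosing, and entered the study only if a liver biopsy showed steatosis and fibrosis (diet-induced obese mice with metabolic dysfunction-associated steatohepatitis, DIO-MASH). They then received vehicle (DIO-MASH vehicle), zalfermin at 0.05 mg/kg (low-dose) or 0.2 mg/kg (high-dose), semaglutide at 3 ug/kg (low-dose) or 120 ug/kg (high-dose), or both agents together (combination). Zalfermin mimics the hormone FGF21 and acts for long, and semaglutide activates the GLP-1 receptor. The sample labels of the combination give no dose. The study's methods name 0.05 mg/kg zalfermin with 3 ug/kg semaglutide, whereas its design text names the high dose of each, and the combination is treated here as the pair of low doses. The model is a diet in 1 inbred strain and 1 sex.

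Each library held between 5228187 and 20885786 counted reads (median 12206788), so that 1 read was worth 0.0819 CPM (reads scaled to a common library total) at the median depth. Mice are numbered 1 to 8 within a group in the order of the numbers in their labels. Low-dose semaglutide mouse 6 stood apart, with a mean Spearman correlation of 0.967 to the other mice of its group across genes, as did chow mouse 8 (0.947). The study set aside 1 low-dose semaglutide mouse that the labels do not mark, so all 56 were kept. The comparisons of the 10 droplet genes were recomputed without each mouse. Other genes, marker sums, shares, ratios and correlations were not. Each mouse is 1 animal and 1 library. The p-values set each difference against the spread among mice, which was estimated over all 7 groups in 1 fit. Label numbers were cut into 4 runs wherever neighbouring numbers differed by more than 100. That cut-off was chosen here, and smaller gaps remain inside the runs. The runs, called number series A to D, held 22, 15, 16 and 3 mice, with 1 to 4 mice of any group they hold. What the runs stand for is not given.

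In bulk liver RNA, fewer cells of a type and less RNA per cell cannot be told apart. Hepatocyte markers (10 genes) summed to a median of 82684 CPM in DIO-MASH vehicle livers and 176749 CPM in chow livers, with 124266 CPM in combination livers, so the tissue label held. Of the 10 white adipocyte markers, Adipoq had 0 to 6 reads in any library, Lep 0 to 2, Retn 0 to 2, Plin1 0 to 3 and Adig 0 to 3, whereas Car3 (7431 to 79292 reads) and Lipe (50 to 426 reads) were plainly present. Their sum was 577.6 to 8151 CPM in chow and 1595 to 2422 CPM in DIO-MASH vehicle livers and was nearly all Car3. The brown adipocyte gene Ucp1 had 0 or 1 read. Of the 10, 2 did move with the droplet genes, since Fabp4 averaged 29.8 CPM in DIO-MASH vehicle and 3.86 CPM in chow livers, and Cfd 16.9 and 0.606 CPM. The sum of 7 markers of monocyte-derived macrophages, cells that also store lipid, ranged from 341.9 to 558.4 CPM in DIO-MASH vehicle, 44 to 155.9 CPM in chow, 123.4 to 476.1 CPM in combination and 170.6 to 384.7 CPM in high-dose zalfermin livers. The sum of 9 hepatic stellate cell markers ranged from 759.6 to 1098 CPM in DIO-MASH vehicle, 160.7 to 272.4 CPM in chow, 356.1 to 653.9 CPM in combination and 304.8 to 633.8 CPM in high-dose zalfermin livers, with no overlap between DIO-MASH vehicle and those 3 groups. The sum of 6 cholangiocyte markers had medians of 381.8, 47.6, 191.5 and 207 CPM in the same order. Each of the 7 macrophage and 9 stellate markers had at least 1 read in every library, and the part of these cell types in the results was not tested.

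Plin4, Plin5 and Plin3 lie on the minus strand of chromosome 17 in GRCm38, at chr17:56100591-56109803, chr17:56111601-56117596 and chr17:56277476-56292873, Plin2 at chr4:86648386-86670060 and Cidec at chr6:113424634-113435760, both on the minus strand. Windows of 250 bases before RefSeq start sites on GRCm38.p6 were taken for 9 of the 10 genes, 11 windows in all. Cidea was left out of this search by choice. Of the 9 genes, the windows of Plin2, Plin4 and Cidec are shown because these genes were lower in the same groups below. All are written 5′ to 3′ on the minus strand, the gene's own, with motif matches in capitals. Plin2 is chr4:86670060-86670309, Plin4 is chr17:56109783-56110032, and Cidec has a window for each of its start sites, chr6:113435761-113436010 (Cidec outer, the start of the annotated gene) and chr6:113434765-113435014 (Cidec inner).
Plin2: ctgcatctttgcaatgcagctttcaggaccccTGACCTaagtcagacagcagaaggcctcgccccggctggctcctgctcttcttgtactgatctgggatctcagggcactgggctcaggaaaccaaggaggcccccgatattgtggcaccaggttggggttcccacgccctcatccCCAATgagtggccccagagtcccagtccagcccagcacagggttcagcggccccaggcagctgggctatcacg
Plin4: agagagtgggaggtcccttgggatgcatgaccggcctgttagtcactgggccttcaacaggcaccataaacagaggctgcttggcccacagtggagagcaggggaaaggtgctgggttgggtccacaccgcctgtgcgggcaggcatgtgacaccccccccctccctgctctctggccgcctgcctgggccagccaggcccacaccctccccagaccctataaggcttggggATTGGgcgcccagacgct
Cidec outer: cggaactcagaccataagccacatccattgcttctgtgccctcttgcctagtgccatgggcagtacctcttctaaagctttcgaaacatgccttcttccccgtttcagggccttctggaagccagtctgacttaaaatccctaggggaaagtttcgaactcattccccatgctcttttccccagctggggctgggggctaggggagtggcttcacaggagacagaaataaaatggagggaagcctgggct
Cidec inner: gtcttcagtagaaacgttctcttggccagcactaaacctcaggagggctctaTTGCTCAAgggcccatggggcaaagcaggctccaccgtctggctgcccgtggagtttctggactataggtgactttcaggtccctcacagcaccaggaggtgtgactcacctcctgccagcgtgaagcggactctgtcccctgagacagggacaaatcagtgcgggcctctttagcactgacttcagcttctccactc

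The 4 short motifs were searched on both strands: the nuclear receptor half-site AGGTCA, held by 14.02% of all 32851 promoter windows of that length, the CCAAT box (CCAAT, 33.85%), the E-box CACGTG (6.02%) and the C/EBP pattern TTGCNNAA (9.56%). PPAR and RXR receptors bind repeats of the half-site, and C/EBP factors the last pattern. Plin2 held a half-site 218 bases and a CCAAT box 73 bases before its start, Plin4 a CCAAT box at 18 bases, and the inner Cidec window a C/EBP match at 198 bases, while the outer Cidec window held none. No 2 matches overlapped. Among the windows not printed, Hsd17b13 held a half-site at 96 bases, Plin5 a half-site at 170 and CCAAT boxes at 224 and 62 bases, and Plin3 a CCAAT box at 75 bases. Distances run from the RefSeq start. The Plin4, inner Cidec and Plin3 matches lie inside the gene spans given above. A match describes letters and is not a bound site.

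**Figure D1:**
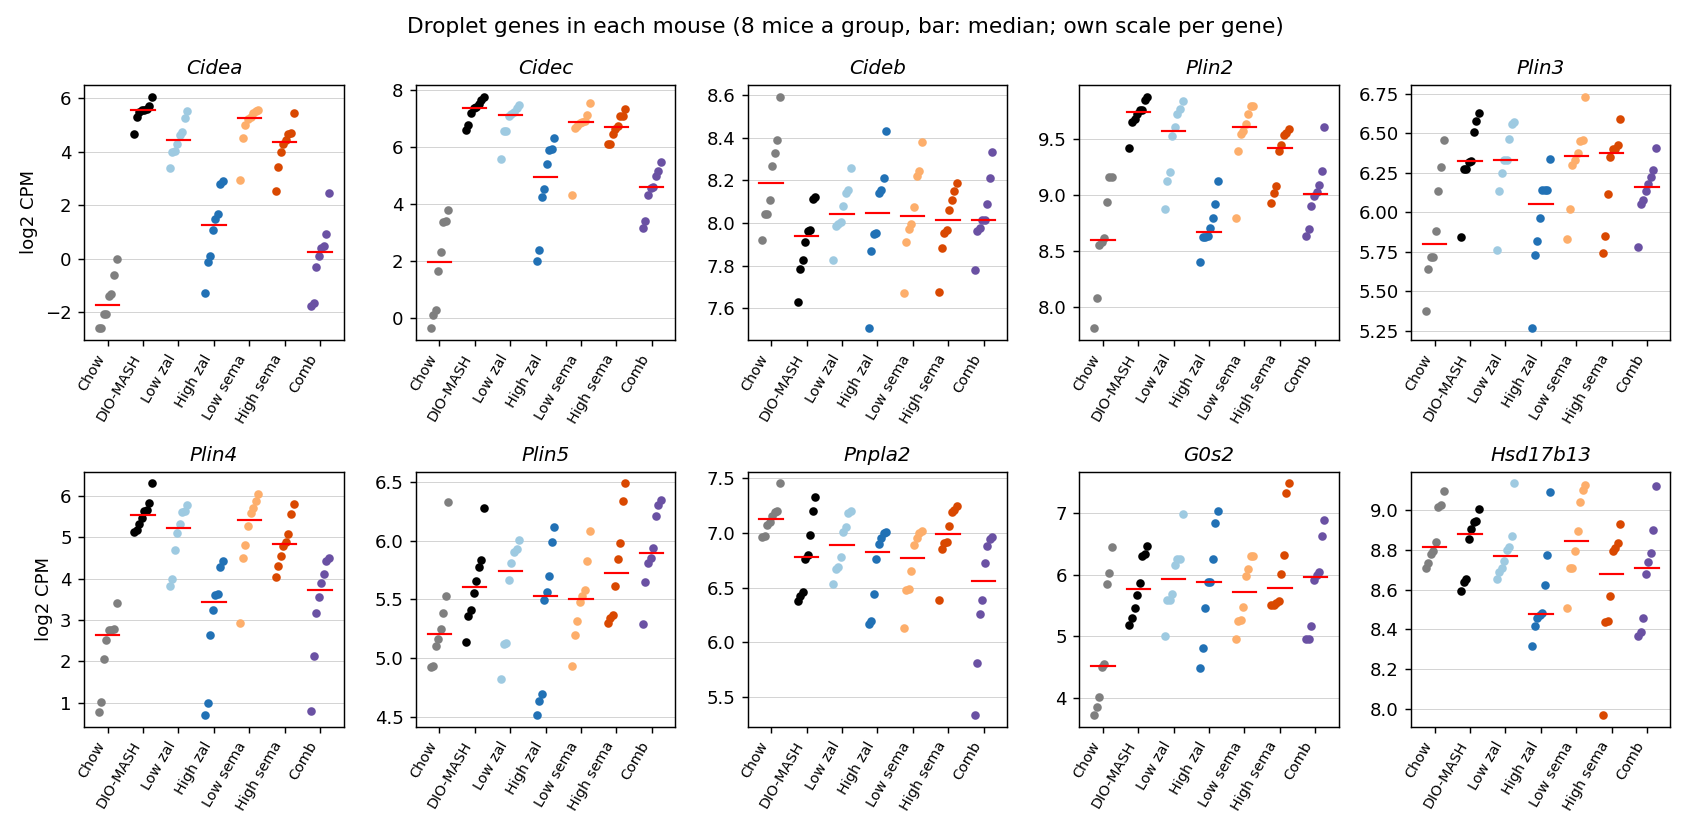
Each point is the log2 CPM (prior count 2) of 1 mouse, 8 a group, and the red bar is the group median; each gene has its own axis. By median, Cidea, Cidec, Plin2 and Plin4 sit higher in DIO-MASH vehicle, low-dose and high-dose semaglutide mice. They sit lower in chow, high-dose zalfermin and combination mice. Mice of the higher and lower groups still overlap for each of these genes, as for Plin2 in high-dose semaglutide and combination mice. All groups overlap for Cideb and Hsd17b13.

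Cidea, a CIDE gene of brown and white fat, was almost silent in chow liver. Its 8 chow mice ranged from 0 to 0.832 CPM with a median of 0.147 CPM, from 17 reads in all and none in 2 mice. The DIO-MASH vehicle mice ranged from 25.3 to 67.0 CPM with a median of 47.2 CPM, so that no mouse of either group came near the other. Combination mice held 0.130, 1.04 and 5.27 CPM (lowest, median, highest) and high-dose zalfermin mice 0.243, 2.27 and 7.28 CPM, all below every DIO-MASH vehicle mouse. The fitted log2 difference from DIO-MASH vehicle was -7.65 ± 0.62 (SE) in chow, -4.92 ± 0.47 in combination and -4.00 ± 0.44 in high-dose zalfermin mice, and these 3 values, which led to the gene's choice, are a description. The chow value rests on few reads, and its 95% interval runs from -8.89 to -6.41.

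The other 3 treatments left Cidea nearer to its level in DIO-MASH vehicle livers. Low-dose zalfermin mice ranged from 10.5 to 45.4 CPM (median 21.8 CPM), low-dose semaglutide mice from 7.62 to 46.7 CPM (38.5 CPM), and high-dose semaglutide mice from 5.58 to 44 CPM (20.6 CPM), each overlapping the DIO-MASH vehicle mice. The log2 differences from DIO-MASH vehicle were -0.92 ± 0.36 (95% interval -1.64 to -0.19), -0.42 ± 0.36 (-1.14 to 0.30) and -1.13 ± 0.36 (-1.86 to -0.40). The value in high-dose less that in low-dose semaglutide mice was -0.71 ± 0.36 (-1.44 to 0.01). By mean level the groups ran DIO-MASH vehicle (46.4 CPM), low-dose semaglutide (34.5), low-dose zalfermin (24.6), high-dose semaglutide (21), high-dose zalfermin (2.94), combination (1.41) and chow (0.241), and the mice of every 2 neighbours in that order overlapped.

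Cidec, which drives droplet fusion in white fat and is called FSP27 there, followed the same order of extremes with a smaller span. Its chow mice ranged from 0.615 to 13.7 CPM (median 3.87) and its DIO-MASH vehicle mice from 96.0 to 218 CPM (median 166), a 28.8-fold lower mean in chow. Combination mice held 8.79, 23.7 and 44.5 CPM and high-dose zalfermin mice 3.89, 32.5 and 78.5 CPM, again with no overlap with DIO-MASH vehicle. Cidec was lower than in DIO-MASH vehicle by a log2 difference of -4.86 ± 0.50 in chow (adjusted p = 1.52e-11), -2.69 ± 0.44 in combination (7.95e-06) and -2.14 ± 0.43 in high-dose zalfermin mice (0.000212), by edgeR's quasi-likelihood test adjusted over all 14105 genes. Inside series A, B and C, the combination difference in mean log2 CPM was -2.60, -3.37 and -2.63, and the high-dose zalfermin difference -2.97, -3.09 and -1.79. Low-dose zalfermin (-0.35 ± 0.40, adjusted p = 0.783), low-dose semaglutide (-0.50 ± 0.40, 0.748) and high-dose semaglutide (-0.58 ± 0.41, 0.472) did not pass the threshold. Neighbours in the order of mean levels overlapped from DIO-MASH vehicle (161 CPM) through low-dose zalfermin (126), low-dose semaglutide (113), high-dose semaglutide (108), high-dose zalfermin (36.4) and combination (24.8) to chow (5.57).

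Cideb, the hepatocyte CIDE gene, moved little. Its mice ranged from 242 to 386 CPM in chow (median 292) and from 198 to 279 CPM in DIO-MASH vehicle (median 245), with overlap. Cideb was higher in chow by 0.30 ± 0.10 on the log2 scale (adjusted p = 0.00817). Inside series A, B and C the difference was 0.18, 0.14 and 0.37. These values rest on 2, 1 and 3 chow mice against 2, 3 and 2 DIO-MASH vehicle mice, and none was computed for series D. On chromosome 14, 1136 of its exon bases (76.34%) lie on the opposite strand of Nop9 exons, and Nop9 was also higher in chow (35.1 against 24.3 CPM, log2 difference 0.53 ± 0.10, adjusted p = 1.27e-05). Whether the counting used strand is not stated, so reads of the 2 genes may not be separated, and the Cideb value is uncertain. None of the 5 treatments passed against DIO-MASH vehicle, with differences of 0.08 to 0.15 and adjusted p from 0.351 to 0.706.

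**Figure D2:**
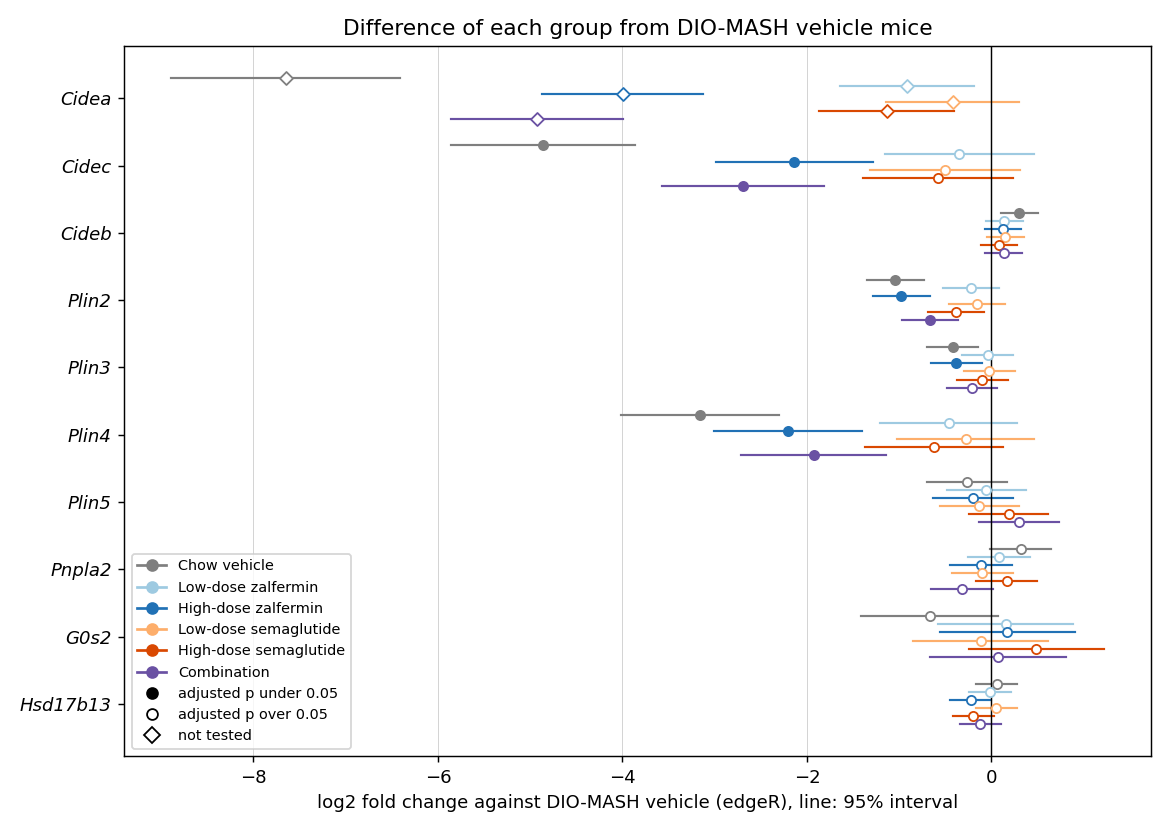
Points are edgeR log2 fold changes of each of 6 groups against the 8 DIO-MASH vehicle mice, and lines are 95% intervals. Filled circles have an adjusted p under 0.05, open circles do not, and diamonds are the Cidea values given without a test. The filled points farthest to the left are Cidec and Plin4 in chow, combination and high-dose zalfermin mice, from -4.86 to -1.93.

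Per kilobase of exon, the CIDE genes differed in their make-up between groups. In DIO-MASH vehicle livers a median of 55.7% of the summed CIDE reads per kilobase came from Cideb, 29.5% from Cidec and 14.5% from Cidea, whereas in chow livers Cideb gave 98.9%, Cidec 1.02% and Cidea 0.0611%. The Cideb share was 92.1% (87.4 to 97.4%) in combination, 90.9% (71.6 to 98.8%) in high-dose zalfermin and 70.3% (56.3 to 79.9%) in high-dose semaglutide livers. Those shares are medians over 8 mice with the lowest and highest mouse, and they include the uncertain Cideb reads. The summed level was 291 ± 23.7 (SD, n = 8) RPKM (reads per kilobase of exon, scaled to depth as CPM is) in DIO-MASH vehicle, 204 ± 32.2 in chow, 193 ± 22.5 in combination and 200.1 ± 21.3 in high-dose zalfermin livers. Of the summed perilipin reads per kilobase, Plin2 gave a median of 81.0% in DIO-MASH vehicle and 77.4% in chow livers, and Plin4 gave 2.83% and 0.612%.

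**Figure D3:**
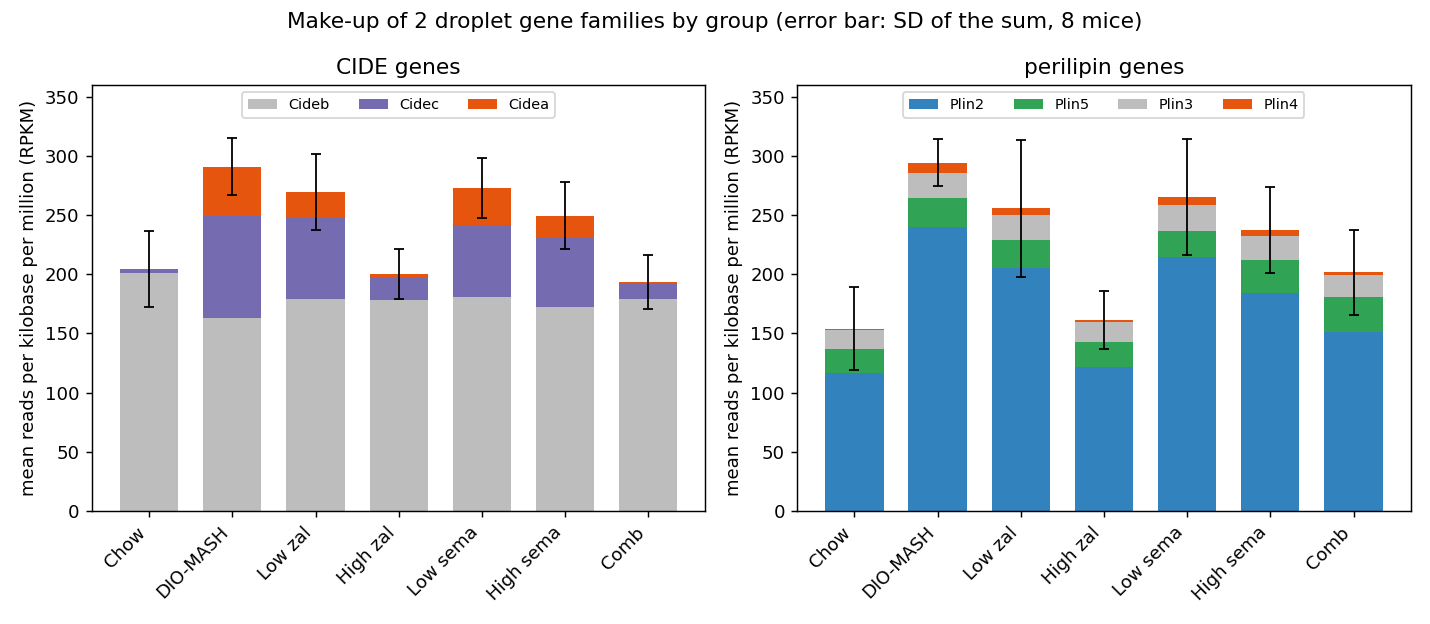
Bars are mean RPKM over 8 mice, stacked by gene, for the CIDE genes (left) and the perilipins (right), and error bars are the SD of the summed level. Cidec and Cidea fill much of the CIDE bar in DIO-MASH vehicle, low-dose and high-dose semaglutide livers and little of it in chow, high-dose zalfermin and combination livers, while Plin2 makes up most of each perilipin bar.

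Plin2, the main perilipin of hepatocyte droplets, was the most abundant of the 4 perilipins in every group. Its mice ranged from 224 to 571 CPM in chow (median 388), from 684 to 942 CPM in DIO-MASH vehicle (854), from 396 to 781 CPM in combination (515) and from 339 to 559 CPM in high-dose zalfermin livers (407). Chow and high-dose zalfermin mice lay wholly below the DIO-MASH vehicle mice, and 1 combination mouse, number 6, lay among them. Plin2 was lower than in DIO-MASH vehicle by -1.04 ± 0.15 in chow (adjusted p = 1.04e-07), -0.98 ± 0.15 in high-dose zalfermin (4.53e-06) and -0.67 ± 0.15 in combination mice (9.96e-04) on the log2 scale. In series A, B and C the combination difference was -0.90, -0.30 and -0.64. Low-dose zalfermin (470 to 918 CPM, -0.23 ± 0.15), low-dose semaglutide (442 to 888 CPM, -0.16 ± 0.15) and high-dose semaglutide (486 to 770 CPM, -0.38 ± 0.15) had adjusted p of 0.601, 0.796 and 0.176.

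Plin4, a perilipin mostly studied in fat and muscle, had the largest span of the 4. Chow mice ranged from 1.54 to 10.5 CPM (median 6.06), DIO-MASH vehicle mice from 35.2 to 79.2 CPM (46.9), combination mice from 1.56 to 22.3 CPM (13.3) and high-dose zalfermin mice from 1.46 to 21.2 CPM (10.7). All mice of those 3 groups lay below the lowest DIO-MASH vehicle mouse. The log2 difference from DIO-MASH vehicle was -3.16 ± 0.43 in chow (adjusted p = 1.82e-08), -1.93 ± 0.39 in combination (2.78e-04) and -2.20 ± 0.40 in high-dose zalfermin mice (5.65e-05). In series A, B and C it was -1.83, -3.56 and -1.64 in combination and -2.67, -2.96 and -2.05 in high-dose zalfermin mice. The low doses and high-dose semaglutide gave -0.46 ± 0.37, -0.28 ± 0.37 and -0.62 ± 0.37, with adjusted p of 0.673, 0.859 and 0.389.

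Plin3, a perilipin that many cell types carry and that joins young droplets from the cytosol, differed by less. It ranged from 41.3 to 87.6 CPM in chow, from 57.2 to 98.9 CPM in DIO-MASH vehicle and from 38.3 to 80.8 CPM in high-dose zalfermin mice, with overlap throughout. It was lower in chow (-0.42 ± 0.14, adjusted p = 0.00832) and in high-dose zalfermin mice (-0.38 ± 0.14, 0.0453). The second call was lost with any 1 of 9 mice left out (DIO-MASH vehicle mice 2, 4, 5, 6 and 8, high-dose zalfermin mice 1, 2, 4 and 6), at an adjusted p of 0.0544 to 0.112. It was also lost with the number series as a covariate (0.0796) and with every gene of 1 or more reads kept (0.0529), and within series A, B and C the difference was -0.26, -0.76 and 0.06. Combination mice (54.7 to 84.5 CPM) gave -0.21 ± 0.14 (adjusted p = 0.278).

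Plin5, which ties droplets to mitochondria and is at home in oxidative tissue, passed in none of the 6 comparisons with DIO-MASH vehicle. Median levels were 36.8 CPM in chow, 48.5 CPM in DIO-MASH vehicle, 46 CPM in high-dose zalfermin and 59.4 CPM in combination mice. Chow mouse 6, at 80.2 CPM, lay above every DIO-MASH vehicle mouse, and the other 7 chow mice were at 30.2 to 46.1 CPM. The differences ran from -0.26 ± 0.22 in chow (adjusted p = 0.305) to 0.30 ± 0.21 in combination mice (0.330).

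Pnpla2, the lipase, was highest on average in chow livers. Chow mice held 125, 140 and 175 CPM (lowest, median, highest), DIO-MASH vehicle mice 82.8, 110 and 160 CPM, and combination mice 40.1, 94.5 and 125 CPM. The groups overlapped, and the differences from DIO-MASH vehicle were 0.32 ± 0.17 in chow (adjusted p = 0.102) and -0.32 ± 0.17 in combination mice (0.165). Without DIO-MASH vehicle mouse 5 or mouse 6 the chow difference passed (adjusted p = 0.0498 and 0.0359), over a range of 0.0359 to 0.187 with each mouse left out. The other 4 treatments gave -0.11 to 0.17 with adjusted p from 0.636 to 0.891.

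G0s2, the protein inhibitor of that lipase, varied widely between mice of a group. Chow mice fell into a low set of 5 (13 to 23.1 CPM) and a high set of 3, mice 1, 5 and 6 (65.5, 57.3 and 87.1 CPM), while DIO-MASH vehicle mice ranged from 36.2 to 88.5 CPM. The chow difference was -0.67 ± 0.37 (adjusted p = 0.121), and without chow mouse 6 it became -0.98 (0.0248), over a range of 0.0248 to 0.229. High-dose semaglutide mice 2 and 4 reached 180 and 160 CPM while the other 6 held 45.3 to 79.6 CPM, and the group difference was 0.49 ± 0.36 (adjusted p = 0.503). The remaining 4 treatment differences lay between -0.11 and 0.17, each with an adjusted p of at least 0.798.

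The ratio of G0s2 to Pnpla2 CPM within a mouse describes inhibitor against lipase, and since it is not per length only its change between groups can be read. Its median was 0.158 in chow and 0.523 in DIO-MASH vehicle livers, with 0.589 in combination, 0.523 in high-dose zalfermin and 0.545 in high-dose semaglutide livers. Chow mice spanned 0.0906 to 0.634 and DIO-MASH vehicle mice 0.311 to 0.815, so the groups overlapped. The ratio of Cidec to Plin2 had a median of 0.00912 in chow, 0.205 in DIO-MASH vehicle, 0.0498 in combination and 0.0708 in high-dose zalfermin livers. The highest chow mouse (0.0372) was below the lowest DIO-MASH vehicle mouse (0.104), whereas high-dose zalfermin mice spanned 0.00982 to 0.232. Combination mouse 6 joined a low Cidec of 10.4 CPM and Plin4 of 1.56 CPM to the highest Plin2 of its group, 781 CPM, and the lowest Pnpla2, 40.1 CPM.

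**Figure D4:**
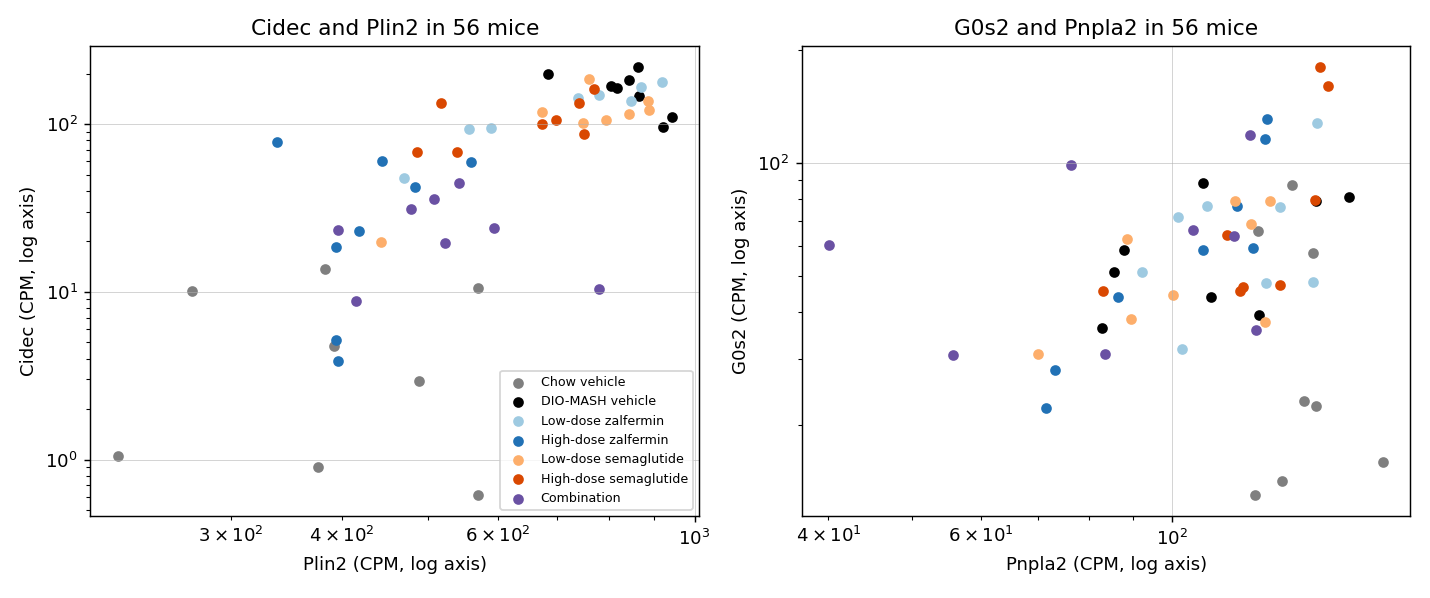
Each point is 1 of 56 mice, colored by group, on log axes in CPM: Cidec against Plin2 (left) and G0s2 against Pnpla2 (right). On the left the DIO-MASH vehicle mice crowd the upper right and chow mice the lower left, and the combination point at 781 CPM of Plin2 is mouse 6; on the right 5 chow mice lie at 13 to 23.1 CPM of G0s2.

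Hsd17b13, the droplet-bound hydroxysteroid dehydrogenase, was close to level across the groups. Chow mice ranged from 419 to 547 CPM (median 451), DIO-MASH vehicle mice from 385 to 513 CPM (471), combination mice from 330 to 557 CPM (419) and high-dose zalfermin mice from 319 to 545 CPM (356). Per kilobase it had the highest mean of the 10 genes in chow, at 218 ± 23 (SD, n = 8) RPKM, and was below Plin2 in DIO-MASH vehicle livers, at 210.0 ± 23.2 against 240.1 ± 22.6 RPKM. The difference from DIO-MASH vehicle was 0.06 ± 0.11 in chow (adjusted p = 0.683, 95% interval -0.17 to 0.28) and -0.23 ± 0.11 in high-dose zalfermin mice (0.163). Without high-dose zalfermin mouse 1, its highest mouse at 545 CPM, the latter became -0.31 (adjusted p = 0.0438), over a range of 0.0438 to 0.287.

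Counted over the genes tested, 5 of 9 passed between chow and DIO-MASH vehicle (Cidec, Plin2, Plin3 and Plin4 lower in chow, Cideb higher), where 55.4% of all 14105 genes passed, so this count does not set the droplet genes apart. Against DIO-MASH vehicle, 3 of 9 passed in combination mice (Cidec, Plin2 and Plin4, all lower; 20.9% of all genes) and 4 of 9 in high-dose zalfermin mice (those 3 and Plin3; 17.2%). By edgeR and by DESeq2, 0 of 9 passed with high-dose semaglutide, low-dose zalfermin or low-dose semaglutide. Of all genes 2.43%, 0.468% and 0% passed there by edgeR, and 2390, 1593 and 1222 had an unadjusted p under 0.05. Of the 9, Plin2 had such an unadjusted p with high-dose semaglutide, and none had with low-dose zalfermin or low-dose semaglutide. All 6 were made against the same 8 DIO-MASH vehicle mice.

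The combination was next set against each agent alone. Relative to low-dose zalfermin, Cidec was lower by -2.35 ± 0.43 on the log2 scale (adjusted p = 3.89e-04) and Plin4 by -1.46 ± 0.39 (0.0138), 2 of 9 genes where 6.62% of all genes passed. Plin2, at -0.45 ± 0.15 (0.0621), passed only without chow mouse 2 (0.0426), low-dose zalfermin mouse 1 (0.0238), low-dose semaglutide mouse 6 (0.0446) or combination mouse 6 (0.0219). Relative to low-dose semaglutide, Cidec (-2.19 ± 0.43, adjusted p = 0.00102), Plin4 (-1.65 ± 0.39, 0.00742) and Plin2 (-0.51 ± 0.15, 0.0391) were lower, 3 of 9 with 4.21% of all genes. That Plin2 call was lost, at 0.0531 to 0.0943, without any 1 of low-dose semaglutide mice 1, 2, 3, 4, 5, 7 and 8 or combination mice 1, 2, 3, 7 and 8, and at 0.0823 when only those 2 groups were fitted. Cidea, not tested, was lower in combination than in low-dose zalfermin mice by -4.01 ± 0.46 and than in low-dose semaglutide mice by -4.50 ± 0.46, with no overlap in either.

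Of the 9 genes tested, the combination differed detectably from high-dose semaglutide in Cidec alone and from high-dose zalfermin in none. Relative to high-dose semaglutide, 1 of 9 genes passed (1.89% of all genes), Cidec at -2.12 ± 0.43 (adjusted p = 0.00281), and Cidea lay -3.79 ± 0.46 lower without overlap. Plin4, at -1.31 ± 0.39 (0.0635), passed without high-dose zalfermin mouse 6 (0.0498), high-dose semaglutide mouse 3 (0.0454) or 5 (0.0477), low-dose semaglutide mouse 6 (0.0411) or combination mouse 2 (0.0362) or 8 (0.0476). Relative to high-dose zalfermin, 0 of 9 passed by edgeR or DESeq2 (0.503% of all genes by edgeR, with 1544 at an unadjusted p under 0.05, Plin2 and Plin5 among them). The 95% intervals there were -1.40 to 0.29 for Cidec, 0.00 to 0.61 for Plin2 and -0.53 to 1.08 for Plin4, which leaves room for sizeable differences.

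The 2 high doses were compared with each other and each with its low dose. High-dose zalfermin had 1 of 9 genes lower than high-dose semaglutide (0.447% of all genes), Plin4 at -1.58 ± 0.40 (adjusted p = 0.0470), with Plin2 at -0.59 ± 0.15 (0.0535) and Cidec at -1.56 ± 0.42 (0.0656). These 3 sit at the threshold: leaving out 1 mouse gave Plin4 0.0227 to 0.139, Plin2 0.0268 to 0.136 and Cidec 0.0299 to 0.154. Plin4 lost its call without any 1 of 20 mice, which were chow mice 3 and 4, DIO-MASH vehicle mouse 5, low-dose zalfermin mouse 8, high-dose zalfermin mice 1, 2, 3, 5, 6 and 7, low-dose semaglutide mice 4 and 7, high-dose semaglutide mice 1, 4, 6, 7 and 8, and combination mice 1, 5 and 7, and also with every gene of 1 or more reads kept (0.0530) or only those 2 groups fitted (0.0766). Plin2 gained one without any 1 of 16, which were chow mice 1, 2, 5 and 6, DIO-MASH vehicle mouse 7, low-dose zalfermin mice 1, 4 and 6, high-dose zalfermin mouse 7, low-dose semaglutide mouse 6, high-dose semaglutide mice 3, 4 and 5, and combination mice 2, 3 and 6. Cidec gained one without high-dose zalfermin mouse 4 (0.0299), high-dose semaglutide mouse 3 (0.0453) or low-dose semaglutide mouse 6 (0.0367).

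The 2 doses of zalfermin differed in 3 of 9 genes, where 1.84% of all genes passed. High-dose zalfermin mice were lower than low-dose mice for Cidec (-1.79 ± 0.42, adjusted p = 0.0140), Plin2 (-0.75 ± 0.15, 0.00380) and Plin4 (-1.74 ± 0.40, 0.0106), and Cidea was lower by -3.08 ± 0.43 without overlap. Each of the 3 tested calls held with any 1 mouse left out, at adjusted p of at most 0.0405, 0.0208 and 0.0361. Between the semaglutide doses, 0 of 9 passed by edgeR or DESeq2 and 0% of all genes did by edgeR (549 of 14105 at an unadjusted p under 0.05, Hsd17b13 among them), with G0s2 differing by 0.60 ± 0.37. For high-dose less low-dose semaglutide mice, the 95% intervals were -0.88 to 0.74 for Cidec, -0.52 to 0.08 for Plin2 and -1.09 to 0.40 for Plin4. Whether the effect of dose differed between the 2 agents was not tested, and their low and high doses were not spaced alike.

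The deviation of the combination from the sum of its parts was taken on the log2 scale, as the effect of the combination less the summed effects of both low doses, each against DIO-MASH vehicle. For Cidea the low doses summed to -1.34 and the combination reached -4.92, a deviation of -3.59 ± 0.58 (95% interval -4.75 to -2.42), given without a test since the gene was chosen with that value known. By edgeR, 0.0142% of the 14105 genes passed for this deviation, a share that counts Cidea itself. Of the 9 tested droplet genes, 0 did so by edgeR or DESeq2. At an unadjusted p under 0.05 there were 952 of all genes, Cidec and Plin4 among them. Cidec deviated by -1.84 ± 0.58 (adjusted p = 0.415, interval -3.01 to -0.67) and Plin4 by -1.19 ± 0.54 (0.677, -2.26 to -0.11). Plin2 deviated by -0.29 ± 0.21 (0.902) and Plin5 by 0.49 ± 0.30 (0.841). Without low-dose semaglutide mouse 6 the Cidea deviation was -3.73 ± 0.56.

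**Figure D5:**
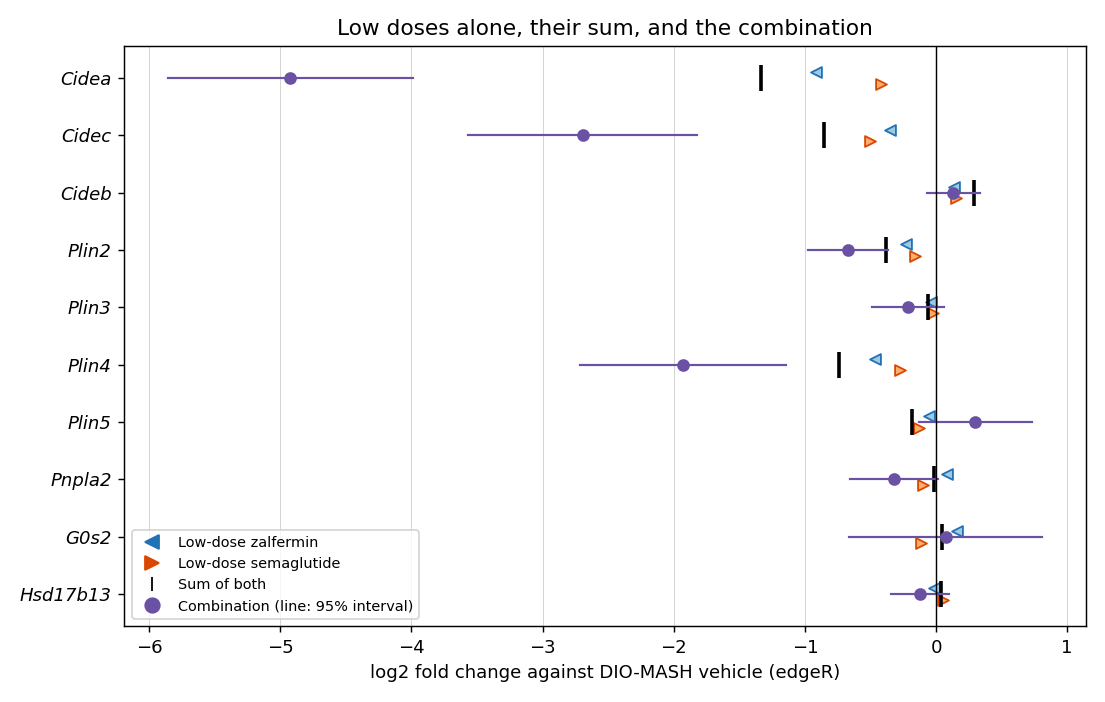
For each gene, triangles give the log2 fold change of each low dose against DIO-MASH vehicle, the black bar their sum, and the circle the combination with its 95% interval. For Cidea, Cidec and Plin4 the interval of the combination (-5.86 to -3.99, -3.57 to -1.82 and -2.72 to -1.14) lies to the left of the summed low doses. The sum is drawn without its own error, so this position is not a test. The deviations of Cidec and Plin4 from the sum did not pass, and that of Cidea was not tested.

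Livers of both high doses and of the combination were also set against chow livers. In combination mice 4 of 9 genes passed, where 32.4% of all genes did, a share that does not set the droplet genes apart: Cidec (2.17 ± 0.47, adjusted p = 3.20e-04), Plin4 (1.23 ± 0.43, 0.0219) and Plin5 (0.56 ± 0.22, 0.0398) were higher than in chow, and Pnpla2 was lower (-0.64 ± 0.17, 0.00260). Plin4 lost its call without combination mouse 2 (0.0612) or with only those 2 groups fitted (0.0506). Plin5 lost it, at 0.0517 to 0.0833, without any 1 of chow mice 2, 3, 4, 5, 7 and 8 or combination mice 2, 4, 5 and 7, and with the number series as a covariate (0.0542). Neither Plin5 nor Pnpla2 passed between chow and DIO-MASH vehicle, and their combination means (62.2 and 90.9 CPM) lay on the far side of the DIO-MASH vehicle means (50.5 and 114 CPM) from the chow means (42 and 141 CPM). Plin2, at 0.37 ± 0.15 (0.0526), gained one without chow mouse 1 (0.0198), 5 (0.0204) or 7 (0.0427), low-dose zalfermin mouse 1 (0.0452), low-dose semaglutide mouse 6 (0.0400) or combination mouse 2 (0.0337) or 3 (0.0328), and G0s2 without chow mouse 6 (0.0270).

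In high-dose zalfermin mice 3 of 9 genes passed against chow (37.2% of all genes). Cidec was higher (2.72 ± 0.47, adjusted p = 1.06e-05), and Pnpla2 (-0.43 ± 0.17, 0.0379) and Hsd17b13 (-0.28 ± 0.11, 0.0405) were lower, while Plin2 differed by 0.07 ± 0.15 (0.761). Pnpla2 lost its call, at 0.0518 to 0.0851, without chow mouse 3, 5 or 7 or high-dose zalfermin mouse 1, 5 or 6, and Hsd17b13, at 0.0518 to 0.0887, without chow mouse 6, 7 or 8 or high-dose zalfermin mouse 2, 4, 5, 6, 7 or 8, and with the number series as a covariate (0.0790). Plin4 gained one without chow mouse 6 (0.0340) or high-dose zalfermin mouse 1 (0.0365) or 6 (0.0329), G0s2 without chow mouse 1 (0.0383) or 6 (0.0140) or high-dose zalfermin mouse 1 (0.0361) or 6 (0.0453), and Cideb without high-dose zalfermin mouse 1 (0.0499). High-dose zalfermin mice 1 and 6 had the lowest Cidec (5.13 and 3.89 CPM) and Plin4 (1.81 and 1.46 CPM) of their group.

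In high-dose semaglutide mice 4 of 9 genes passed against chow, all higher, where 39.9% of all genes passed. They were Cidec (4.29 ± 0.49, adjusted p = 1.99e-09), Plin4 (2.54 ± 0.42, 4.30e-06), Plin2 (0.66 ± 0.15, 4.71e-04) and G0s2 (1.15 ± 0.37, 0.0110, or 0.0539 with only those 2 groups fitted), and Cidea lay 6.52 ± 0.63 above chow without overlap. Calls were gained for Plin5 without chow mouse 6 (0.0114) and for Cideb without that mouse (0.0351) or high-dose semaglutide mouse 1 (0.0498). They were gained for Hsd17b13, at 0.0298 to 0.0484, without high-dose zalfermin mouse 1 or high-dose semaglutide mouse 1, 3, 4 or 6, and for Plin3, at 0.0138 to 0.0499, without chow mouse 2, 7 or 8, DIO-MASH vehicle mouse 7, low-dose zalfermin mouse 1, low-dose semaglutide mouse 6, high-dose zalfermin mouse 4 or high-dose semaglutide mouse 3 or 4. These 3 comparisons share the chow mice.

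Beyond the 10 genes, 3 lists cover the wider droplet pathway: triglyceride synthesis and droplet budding (19 genes tested), droplet lipolysis and turnover (20), and transcription factors known to act on these genes (17). In chow against DIO-MASH vehicle the synthesis list had 7 genes higher and 8 lower, the turnover list 11 and 3, and the regulators 9 and 2, with median log2 differences of 0.16, 0.20 and 0.39 beside -0.01 over all genes. In combination mice the counts were 2 and 3, 5 and 1, and 5 and 1, with medians of 0.06, 0.10 and 0.24 beside -0.03. In high-dose zalfermin mice they were 3 and 2, 3 and 1, and 6 and 1. High-dose semaglutide had 1 synthesis gene and 1 regulator higher and no turnover gene, and neither low dose had any, at the background shares given above.

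Within the synthesis list, Mogat1, an acyltransferase that makes diacylglycerol, was lower by -3.59 ± 0.31 in chow (adjusted p = 1.73e-13), -1.77 ± 0.26 in combination (1.59e-06) and -1.80 ± 0.27 in high-dose zalfermin mice (1.76e-06). Lpin1, a phosphatidate phosphatase and coactivator, was higher by 1.61 ± 0.30 in chow and 0.94 ± 0.30 in combination mice. Fitm1, which helps droplets bud, was lower by -0.73 ± 0.18 in combination mice (0.00299) and -0.57 ± 0.18 in high-dose zalfermin mice (0.0234). Hilpda, another inhibitor of the Pnpla2 lipase, was lower in chow by -1.27 ± 0.24 (1.35e-05), and in combination mice differed by -0.53 ± 0.23 (0.0849).

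In the turnover list, Abhd5, the activator of the Pnpla2 lipase, averaged 33.2 CPM in DIO-MASH vehicle and 32 CPM in combination livers (-0.06 ± 0.09, adjusted p = 0.673). Pnpla3, a droplet protein that can sequester Abhd5, was low throughout, at 0.489 CPM in chow, 2.67 CPM in DIO-MASH vehicle and 6.34 CPM in combination livers. It was lower in chow (-2.47 ± 0.56, adjusted p = 2.14e-04) and higher in combination mice (1.2 ± 0.44, 0.0437). Tm6sf2, which loads lipid onto secreted lipoproteins, was higher by 1.03 ± 0.17 in chow, 1.12 ± 0.17 in combination and 0.78 ± 0.17 in high-dose zalfermin mice, and the esterase Ces1d by 0.97 ± 0.25 in chow and 0.85 ± 0.25 in combination mice.

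Among the regulators, Hnf4a, a hepatocyte identity factor, was higher by 1.19 ± 0.14 in chow and 0.80 ± 0.14 in combination mice. In chow mice the coactivator Ppargc1b (1.03 ± 0.30) and the transcription factor Klf15 (0.76 ± 0.21) were also higher, and in combination mice the receptor Ppard (1.01 ± 0.27) and the coactivator Ppargc1a (0.78 ± 0.17). The regulators named are those with the largest changes that passed. Of the list, 2 genes were lower in chow and 1 in combination mice, none of them among those named.

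Over all 56 mice, the non-member genes with the most similar log2 CPM were Ermp1 (Pearson r = 0.916), Mogat1 (0.912) and Lgals1 (0.894) for Cidea. For Cidec they were Osbpl3 (0.934), Tlr12 (0.924) and Vnn1 (0.919), for Plin2 Mogat1 (0.835), Lgals1 (0.832) and 2010003K11Rik (0.825), and for Hsd17b13 4931406C07Rik (0.674), Cyp2a12 (0.657) and Msra (0.612). The mice share their groups. With group means removed the Cidea values fell to 0.562, 0.568 and 0.608 and the Cidec values to 0.762, 0.665 and 0.715. The Plin2 values fell to 0.618, 0.530 and 0.468, and those of Hsd17b13 became 0.604, 0.672 and 0.563. These correlations were picked as the highest of all genes and are a description.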

How the data were processed

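RNA sequencing was performed on liver from 56 mice in 7 groups of 8. Stranded mRNA libraries were sequenced on a NextSeq 500. The study's methods name STAR with GRCm38 indexes, whereas the submitters' processing notes name Trim Galore 0.6.4 and Salmon 1.9.0 with GRCm38. The program that counted reads and its strand setting are not given in the sources used here. The authors deposited whole-number read counts per gene, not normalized, with 1 column per mouse, and groups were taken from the labels.

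Genes with at least 5 reads in at least 3 mice (14105 of 21935) were fitted in edgeR 4.0.16 (R 4.3.3) with TMM scaling and all 7 groups in 1 model. The quasi-likelihood F test was used for each comparison, with Benjamini-Hochberg adjustment over all tested genes and a threshold of 0.05. "Passed" and "called" refer to this threshold. Cidea stayed in the fit and was left out of every count of droplet genes, since it had been chosen on its values in these mice. CPM used TMM-scaled library sizes, log2 CPM a prior count of 2, and RPKM the merged exon length of each gene. Groups overlap where the highest mouse of the lower group reaches the lowest mouse of the higher one. Counting error alone depends on depth, which ranged between 5228187 and 20885786 reads. No 2 libraries of a group agreed within sampling noise (lowest chi-square per degree of freedom 7.93). The scripts were tested on simulated data.

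Alternatives were DESeq2 1.42.0 (Wald test), DESeq2 size factors in edgeR, every gene with 1 or more reads, a filter of at least 10 reads in at least 8 mice, the number series as a covariate, only the groups compared, and each of the 56 mice left out. These alternatives were kept for the 10 droplet genes only. Gene lists, members and markers were chosen with earlier results of these data known. The genes named from each pathway list are the 3 with the largest change among those that passed in chow and in combination mice against DIO-MASH vehicle, and those acting directly on Pnpla2 (Abhd5, Hilpda and Pnpla3). Genes named for likeness are the 3 with a mean of at least 1 CPM and the highest correlation. Values of Mogat1, Fitm1 and Tm6sf2 in high-dose zalfermin mice were added after they were seen. Ldaf1 of the synthesis list was not matched and Plin1 had too few reads to be tested. Positions are from GENCODE M21 (GRCm38), and promoter windows from RefSeq (GRCm38.p6). Figures were drawn with matplotlib 3.10.9.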

Additional observations from a re-analysis of the deposited data

Results flagged for a closer look

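Low-dose semaglutide mouse 6 lay far below the other 7 mice of its group for 3 genes, with Cidea at 7.62 CPM against 22.6 to 46.7 CPM, Cidec at 19.9 against 101 to 187 CPM and Plin2 at 442 against 673 to 888 CPM. This was also the low-dose semaglutide mouse whose whole profile stood farthest from its group.

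In other groups, 1 mouse stood apart for 1 gene each. Plin3 was 57.2 CPM in DIO-MASH vehicle mouse 7, with the others at 77.0 to 98.9 CPM. Plin5 was 80.2 CPM in chow mouse 6, with the others at 30.2 to 46.1 CPM. Pnpla2 was 83.2 CPM in high-dose semaglutide mouse 5, with the others at 116 to 151 CPM. Hsd17b13 was 562 CPM in low-dose zalfermin mouse 4, with the others at 402 to 468 CPM. In all, 70 sets of 8 mice were examined, and chance marks about 1 in 20 of such sets.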

How the results depend on the processing

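No paired analysis was made because the groups share no replicate numbers in the labels. Some label numbers run consecutively through the groups, and what this order stands for is not given. Of the counts of droplet genes called under the alternatives, 126 stayed within 1.5 times the reported count and 10 did not. Combination against high-dose semaglutide gave 2 with the number series as a covariate and 1 to 2 with each mouse left out. High-dose zalfermin against high-dose semaglutide gave 3 by DESeq2, 0 with every gene of 1 or more reads, 2 with at least 10 reads in at least 8 mice, 3 with the number series as a covariate, and 0 to 3 with each mouse left out. High-dose zalfermin against chow gave 1 to 5 with each mouse left out. The causes of these shifts were not tested.

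The single-gene values were log2 differences from DIO-MASH vehicle, deviations from the summed low doses, and mean CPM by group with DESeq2 size factors. Of these, 613 were unchanged, 3 gained and 3 lost a call, and 11 turned in direction, none of the 11 called. Unchanged meant the same direction and side of the threshold, or for mean CPM a shift below the group SD. Cidea was judged by direction alone. Mice left out entered only at the lowest and highest log2 value. Calls lost with other mice, as for Plin3 above, are not all counted. With the number series as a covariate, log2 differences from DIO-MASH vehicle became 0.014 for Plin3 in low-dose zalfermin, 0.028 for Plin3 in low-dose semaglutide and -0.0098 for G0s2 in combination mice. With each mouse left out, those in low-dose zalfermin mice ran from -0.10 to 0.026 for Plin3, -0.13 to 0.056 for Plin5, -0.048 to 0.26 for G0s2 and -0.072 to 0.011 for Hsd17b13. Plin3 in low-dose semaglutide mice ran from -0.091 to 0.035. G0s2 ran from -0.12 to 0.19 in combination and -0.041 to 0.30 in high-dose zalfermin mice, and its deviation from the summed low doses from -0.16 to 0.24. Depth limits Cidea in chow mice, where the 8 libraries held 17 reads of it.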
